A study of Mus musculus with 12 samples.

Results

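The hypothalamus, the brain region that sets appetite, energy use and hormone release, was compared between tumour-bearing and tumour-free mice in 6 of the 12 libraries of the series, taken by their titles. The tumour-bearing group was 3 male BALB/c mice that, when 7 weeks old, received a subcutaneous abdominal graft of CT-26, a cultured colon tumour line of mouse origin. The labels call them cachectic, a state of body wasting, give a body weight 7 to 10% below that of healthy mice by day 10 after injection, and place tissue collection at day 25. The control group was 3 male BALB/c mice labelled as 7 weeks old and as having had no tumour injection. Their collection day and any sham injection are not given, so the age at collection may differ between the groups. An effect of age could then not be told apart from one of the tumour. No genetic alteration is stated for either group. The CT-26 tumour is a single transplanted line and food intake is not given, so effects of the tumour, of eating less and of weight loss cannot be told apart. Each library came from the snap-frozen hypothalamus of 1 mouse.

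Several cell types share this tissue. In the arcuate nucleus, neurons that make NPY and AgRP drive feeding and are switched on by fasting and low leptin, while neighbouring neurons that make POMC-derived melanocortins and CART restrain it. Glial cells, vessel walls and tanycytes that line the third ventricle take up circulating hormones and cytokines. In bulk tissue, fewer cells of a type and less RNA per cell cannot be told apart.

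Values are in CPM, counts per 1000000 after library scaling, and are given for mice 1, 2 and 3 of each group in that order. Library totals ran from 27195317 to 52535796 counts. The first principal component held 48.6% of the variance of log2 CPM, and the 3 CT-26 libraries lay on one side of it and the 3 controls on the other. The regional transcription factors Nkx2-1, Otp and Sim1 were detected in all 6 libraries, and of 30 such factors 0 passed the test with edgeR, 2 were higher and 6 lower at an unadjusted p below 0.05, and 3 passed with DESeq2. Without control mouse 1, 4 of them were called lower, and without control mouse 3, 1 higher and 2 lower, so the 0 depends on single libraries; without CT-26 mouse 2, 1 was called lower. Some regional markers differed between libraries. Control mouse 2 held dopamine neuron transcripts, with the transporter Slc6a3 at 2.43, 3.64 and 2.57 CPM in CT-26 mice against 3.25, 28.9 and 3.195 CPM in control mice. Control mouse 1 was low in Foxb1, a factor of the mammillary area, at 31.5, 34.4 and 27.1 CPM in CT-26 mice against 5.73, 33.15 and 29.9 CPM in control mice. The fibroblast and meningeal gene Fmod stood at 7.80, 25.8 and 5.87 CPM in CT-26 mice against 8.03, 6.74 and 6.64 CPM in control mice, highest in CT-26 mouse 2. Every fit was therefore repeated without each library in turn. Unless a loss is stated, each named gene said to have risen or fallen passed in the fit of all 6 libraries and in all 6 of those repeats.

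Of 17961 genes tested, 1574 were called at an adjusted p below 0.05 (8.76%), of which 707 were higher with CT-26 (3.94%) and 867 lower (4.83%). Most changes were small. At least 2-fold differences were found for 171 of the higher and 61 of the lower genes, and the median absolute change of the called genes was 0.41 on the log2 scale. The 3 CT-26 libraries lay wholly above or wholly below the 3 controls for 30.3% of genes. Leaving out control mouse 2 gave 578 calls (3.16%), with 284 of them higher (1.55%) and 294 lower (1.61%), and 550 of them were among the 1574. The count was 711 without CT-26 mouse 1, 1041 without CT-26 mouse 2 and 803 without CT-26 mouse 3, and 454 genes were called in every one of the 6 repeats. The higher genes made up 44.9% of calls with TMM scaling and 57.7% with library totals only (882 higher and 647 lower).

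**Figure D1:**
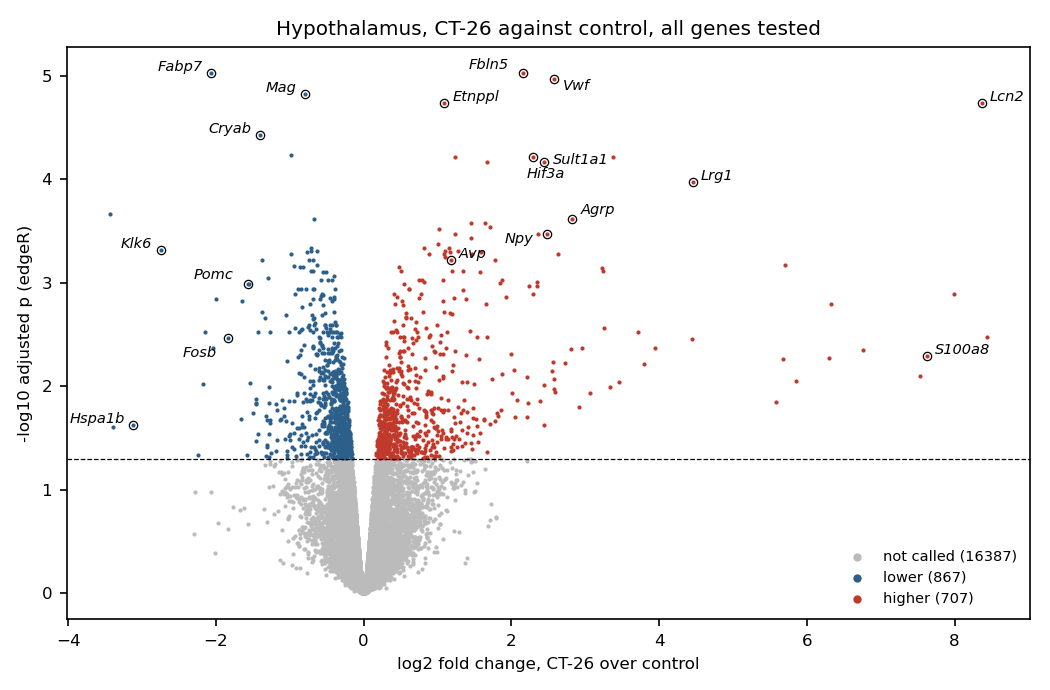
Each point is 1 of the 17961 genes tested, placed by its log2 fold change (CT-26 over control, x axis) and by −log10 of its edgeR adjusted p (y axis), with the dashed line at an adjusted p of 0.05. The 707 higher genes (red) reach further from 0 than the 867 lower genes (blue), with Lcn2 at 8.36 and Fabp7 and Mag among the lower genes with the smallest adjusted p.

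The genes of the arcuate feeding circuit changed in opposite directions. The appetite-promoting peptides rose: Npy (chr6:49822710-49829507, plus strand; GRCm38) 5.57-fold and Agrp (chr8:105566698-105637393, minus strand), an antagonist of melanocortin receptors, 7.07-fold. Pomc (chr12:3954951-3960642, plus strand), the melanocortin precursor, was 2.97-fold lower and Cartpt 1.59-fold lower. Of the 14 listed arcuate peptide genes, 11 passed the count minimum. Of these, 3 rose (27.3%, beside 3.94% of all genes) and 4 fell (36.4%, beside 4.83%). Without control mouse 2 the same 3 rose, while Pomc, Cartpt and Ghrh fell together with Nts in place of Npvf.

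Npy was at 396.5, 184.5 and 297 CPM in CT-26 mice against 46.1, 63.2 and 48.0 CPM in control mice (log2 2.48 ± 0.23 SE, edgeR adjusted p = 0.000339). All CT-26 mice were above all controls, with CT-26 mouse 1 highest and mouse 2 lowest. Agrp was at 54.6, 28.8 and 34.8 CPM in CT-26 mice against 4.03, 7.06 and 5.48 CPM in control mice (log2 2.82 ± 0.24 SE, edgeR adjusted p = 0.000240), with the CT-26 mice in the same order at the top. Per length, Npy was the more abundant of the pair in every library: it was at 1299.72, 632 and 909.52 TPM in CT-26 mice against 139, 204 and 156 TPM in control mice, and Agrp was at 138, 76.2 and 83.0 TPM in CT-26 mice against 9.62, 17.7 and 13.9 TPM in control mice.

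Pomc was at 8.41, 14.6 and 8.31 CPM in CT-26 mice against 35.0, 29.1 and 27.6 CPM in control mice (log2 -1.57 ± 0.19 SE, edgeR adjusted p = 0.00102). The highest CT-26 mouse, mouse 2, was below the lowest control. Cartpt was at 62.9, 64.1 and 56.0 CPM in CT-26 mice against 94.8, 97.3 and 98.03 CPM in control mice (log2 -0.67 ± 0.06 SE, edgeR adjusted p = 0.000240), and its 3 controls lay within a narrow band well above the CT-26 mice. The dynorphin precursor gene Pdyn, made in arcuate KNDy neurons and in many other neurons, rose (log2 0.55 ± 0.09 SE, edgeR adjusted p = 0.00458). Npvf, which encodes the RFamide peptides of the dorsomedial area, fell (log2 -1.14 ± 0.25 SE, edgeR adjusted p = 0.0210), and this call was lost without CT-26 mouse 1, CT-26 mouse 3 or control mouse 2 (edgeR adjusted p = 0.05765, 0.0784 and 0.0735). Gal, Nts and Tac2 stood at log2 0.03, -0.23 and 0.05 and did not pass in the fit of all 6 libraries.

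**Figure D2:**
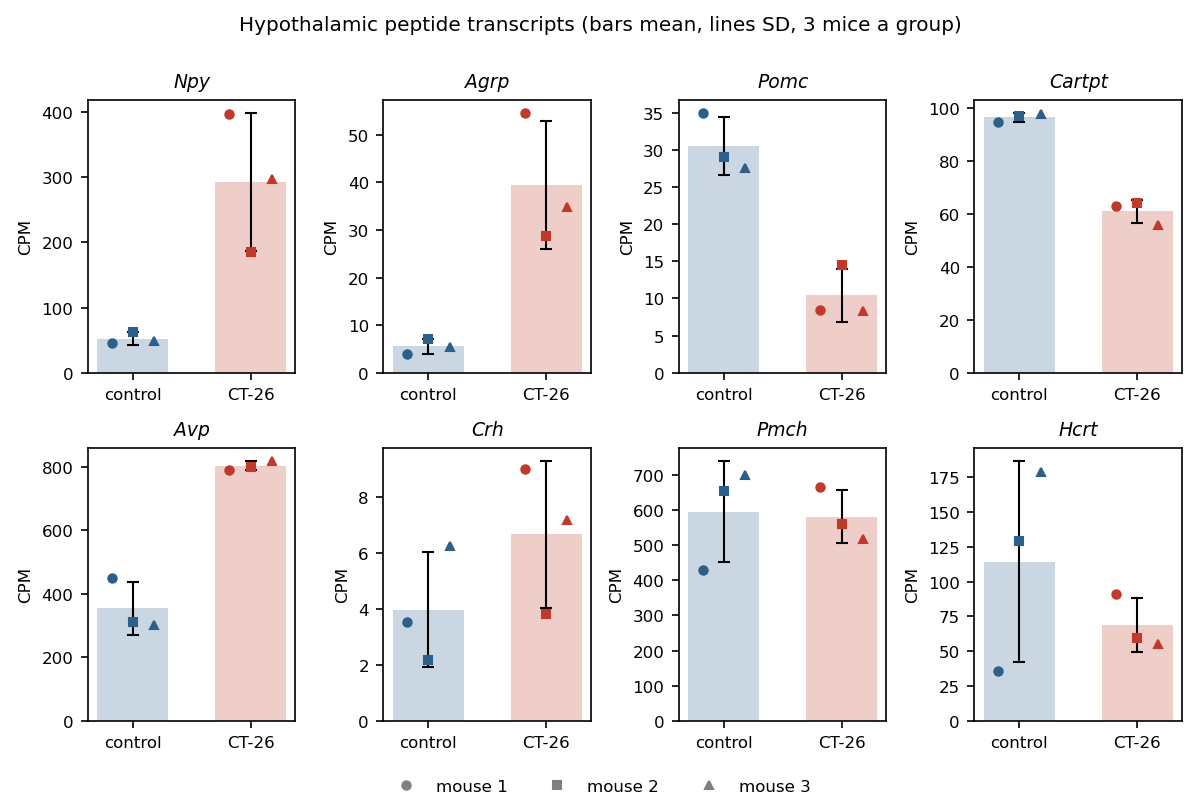
Level in CPM (y axis, from 0) of 8 peptide transcripts by group, with 1 point per mouse, bars at the mean and lines of 1 SD over 3 mice. Npy, Agrp and Avp are higher in all 3 CT-26 mice than in any control and Pomc and Cartpt lower, whereas the groups overlap for Crh, Pmch and Hcrt.

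Of 9 releasing and posterior pituitary hormone genes, 1 rose, the vasopressin gene, and 1 fell, Ghrh. Each is 11.1% of the list, beside 3.94% of all genes higher and 4.83% lower. Avp, the antidiuretic and stress-axis peptide of the paraventricular and supraoptic nuclei, was at 792, 800 and 819 CPM in CT-26 mice against 450.3, 312 and 301 CPM in control mice (log2 1.18 ± 0.13 SE, edgeR adjusted p = 0.000606). The CT-26 mice were close to each other and above every control. Its chromosomal neighbour Oxt was at 353, 327 and 342 CPM in CT-26 mice against 285, 174 and 361 CPM in control mice and did not pass (log2 0.32 ± 0.19 SE, edgeR adjusted p = 0.327). Crh, which starts the adrenal stress axis, was at 9.02, 3.82 and 7.19 CPM in CT-26 mice against 3.525, 2.19 and 6.245 CPM in control mice; the groups overlapped and it did not pass (log2 0.77 ± 0.35 SE, edgeR adjusted p = 0.208). Trh, the first signal of the thyroid axis, was at 179.7, 153 and 162 CPM in CT-26 mice against 186, 139.8 and 133 CPM in control mice (log2 0.11, edgeR adjusted p = 0.596), and it was called higher without control mouse 1 (log2 0.27, edgeR adjusted p = 0.0454). Without that mouse the list held 2 rises and 2 falls. Ghrh, the growth hormone-releasing hormone gene of the arcuate nucleus, was at 5.30, 7.71 and 4.46 CPM in CT-26 mice against 11.9, 11.05 and 12.4 CPM in control mice and fell (log2 -1.03 ± 0.17 SE, edgeR adjusted p = 0.00565), with no control as low as any CT-26 mouse.

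The orexin and melanin-concentrating hormone genes, wake and feeding signals of the lateral area, varied widely among controls and did not pass in the fit of all 6 libraries. Hcrt, the orexin precursor, was at 91.25, 59.9 and 55.25 CPM in CT-26 mice against 35.8, 129 and 178 CPM in control mice, lowest in control mouse 1 and highest in control mouse 3 (log2 -0.74 ± 0.42 SE, edgeR adjusted p = 0.303). Without control mouse 1 it was called lower (log2 -1.17, edgeR adjusted p = 0.00613). Pmch, which encodes melanin-concentrating hormone, was at 665, 561 and 516 CPM in CT-26 mice against 430.1, 654 and 699.7 CPM in control mice (log2 -0.04 ± 0.15 SE, edgeR adjusted p = 0.916). Tac1, the substance P precursor, fell modestly (log2 -0.34 ± 0.06 SE, edgeR adjusted p = 0.00966). Qrfp, an orexigenic RFamide, rose (log2 1.05 ± 0.26 SE, edgeR adjusted p = 0.0324), a call lost without CT-26 mouse 1, CT-26 mouse 2, CT-26 mouse 3 or control mouse 2 (edgeR adjusted p = 0.0790, 0.06645, 0.0843 and 0.0837).

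Among 36 appetite and hormone receptor genes, 3 rose and 2 fell, a share of 13.9% beside 8.76% of all genes. Ghsr, the ghrelin receptor carried by AgRP neurons, was at 8.41, 8.18 and 10.5 CPM in CT-26 mice against 5.39, 4.76 and 4.50 CPM in control mice and rose (log2 0.90 ± 0.13 SE, edgeR adjusted p = 0.00317). Its 3 CT-26 values lay above all controls. Glp1r, the GLP-1 receptor, rose (log2 0.53 ± 0.11 SE, edgeR adjusted p = 0.0145), a call lost without control mouse 2 (edgeR adjusted p = 0.0591). The leptin receptor gene Lepr was at 2.79, 4.54 and 3.47 CPM in CT-26 mice against 2.305, 2.72 and 2.87 CPM in control mice and did not pass (log2 0.45 ± 0.19 SE, edgeR adjusted p = 0.173), nor did the melanocortin receptor gene Mc4r (log2 0.10 ± 0.17 SE, edgeR adjusted p = 0.774). With control mouse 2 left out, 1 receptor gene rose. The count of falls was 0 without CT-26 mouse 3 or control mouse 2 and 1 without CT-26 mouse 1 or control mouse 3 (edgeR), beside 2 with DESeq2 and 3 at an unadjusted p below 0.05 in all libraries.

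Of 21 thyroid axis and tanycyte genes tested, 4 rose (19.0%, beside 3.94% of all genes) and 3 fell (14.3%, beside 4.83%). The rises were 2 without CT-26 mouse 1 or control mouse 3, and the falls were 1 without CT-26 mouse 1, CT-26 mouse 3, control mouse 1 or control mouse 2. Hr, a co-repressor gene that thyroid hormone induces in brain, was at 82.6, 58.5 and 85.2 CPM in CT-26 mice against 31.4, 32.3 and 42.7 CPM in control mice (log2 1.09 ± 0.14 SE, edgeR adjusted p = 0.00190), and Klf9, which responds to both thyroid hormone and glucocorticoids, rose (log2 0.37 ± 0.07 SE, edgeR adjusted p = 0.00867). Dio2, whose enzyme activates thyroid hormone in tanycytes and astrocytes, was at 21.3, 22.2 and 22.2 CPM in CT-26 mice against 10.5, 18.2 and 15.5 CPM in control mice, with a call (log2 0.57 ± 0.15 SE, edgeR adjusted p = 0.0440) lost without CT-26 mouse 1, CT-26 mouse 2, CT-26 mouse 3 or control mouse 3 (edgeR adjusted p = 0.110, 0.0804, 0.1065 and 0.0839). The tanycyte and progenitor filament gene Nes fell (log2 -0.64 ± 0.09 SE, edgeR adjusted p = 0.00280). Cga, the glycoprotein hormone subunit that thyrotrophs and the pars tuberalis make, was at 4.37, 6.63 and 4.29 CPM in CT-26 mice against 1.42, 0.9455 and 0.581 CPM in control mice and rose (log2 2.35 ± 0.28 SE, edgeR adjusted p = 0.00107), while Tshb, its thyroid-stimulating partner, did not pass (log2 0.39 ± 0.13 SE, edgeR adjusted p = 0.1025). Of the 13 listed pituitary markers 5 passed the count minimum. With Cga, the factor genes Pitx1 (log2 1.86 ± 0.39 SE, edgeR adjusted p = 0.0171) and Gata2 (log2 0.85 ± 0.18 SE, edgeR adjusted p = 0.0188) rose, calls that were lost without CT-26 mouse 1 (edgeR adjusted p = 0.0586) and lost without CT-26 mouse 1 or control mouse 2 (edgeR adjusted p = 0.0771 and 0.0718), respectively, and Tbx19 was lower (log2 -0.94 ± 0.22 SE, edgeR adjusted p = 0.0285), a call lost without CT-26 mouse 1, CT-26 mouse 3, control mouse 1 or control mouse 2 (edgeR adjusted p = 0.0862, 0.1125, 0.0625 and 0.1055). The 13 summed to 16.6 to 21.5 CPM in CT-26 libraries and 10.2 to 13.5 CPM in control libraries. Gh stood at 0.179, 0.0721 and 0 CPM in CT-26 mice against 0.678, 0.02955 and 2.98 CPM in control mice, and Pou1f1 was at 0, 0.0721 and 0.0953 CPM in CT-26 mice against 0.0339, 0.02955 and 0.0363 CPM in control mice. The part of pituitary carry-over in the Cga result was not tested.

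Genes induced by interleukin 6 and by the systemic acute phase were higher with CT-26. Lcn2 (chr2:32384633-32388252, minus strand), which encodes the iron-siderophore-binding protein lipocalin 2, was at 37.5, 15.1 and 27.2 CPM in CT-26 mice against 0.0678, 0.0591 and 0.109 CPM in control mice, that is 1047, 420 and 1426 counts in CT-26 mice against 2, 2 and 3 in control mice. All 3 CT-26 mice were far above the controls, in which it was near the lower limit of counting (log2 8.36 ± 0.51 SE, edgeR adjusted p = 1.81e-05). Lrg1, a secreted acute phase glycoprotein also made by endothelium, was at 7.085, 5.23 and 3.37 CPM in CT-26 mice against 0.203, 0.207 and 0.290 CPM in control mice (log2 4.46 ± 0.35 SE, edgeR adjusted p = 0.000106). Steap4, a metalloreductase gene induced by cytokines, was at 3.58, 2.92 and 2.92 CPM in CT-26 mice against 0.407, 0.236 and 0.254 CPM in control mice (log2 3.38 ± 0.25 SE, edgeR adjusted p = 6.13e-05). The groups were widely apart for each of these genes. Each had a mean control count below 10, so it passed the count minimum only through the CT-26 libraries.

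Of 35 listed genes of this kind 24 passed the count minimum. Of those, 5 had a mean control count below 10, Lcn2, Lrg1 and Steap4 among them, and could pass only through the CT-26 libraries. Of the 19 others, 11 rose, 57.9% beside 3.94% of all genes, with a median log2 of 0.49 over the 19 and −0.003 over all genes. The 11 became 7 without CT-26 mouse 1, 6 without control mouse 2 and 6 without control mouse 3. The transcription factor Cebpd rose (log2 1.46 ± 0.14 SE, edgeR adjusted p = 0.000371), as did the oncostatin M receptor Osmr (log2 1.07 ± 0.12 SE, edgeR adjusted p = 0.000943), the protease inhibitor A2m (log2 0.79 ± 0.09 SE, edgeR adjusted p = 0.000943) and the ferroxidase Cp (log2 1.10 ± 0.11 SE, edgeR adjusted p = 0.000565). Agt, the angiotensinogen gene of astrocytes, was at 481, 355 and 446 CPM in CT-26 mice against 242, 256 and 229.9 CPM in control mice (log2 0.82 ± 0.10 SE, edgeR adjusted p = 0.000978). Socs3, the feedback inhibitor of this pathway, was at 4.62, 5.26 and 4.84 CPM in CT-26 mice against 3.90, 4.46 and 2.36 CPM in control mice and did not pass (log2 0.45 ± 0.20 SE, edgeR adjusted p = 0.193). Il6 itself had 0 counts in all 6 libraries. Stat3 did not pass (log2 -0.05 ± 0.05 SE, edgeR adjusted p = 0.562).

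Interleukin 1 and NF-kB genes moved in a few members. Il1r1, the interleukin 1 receptor of endothelium and some neurons, was at 8.09, 8.54 and 8.60 CPM in CT-26 mice against 2.98, 2.51 and 2.43 CPM in control mice (log2 1.67 ± 0.12 SE, edgeR adjusted p = 6.81e-05), nearly alike within each group. Ch25h, which makes 25-hydroxycholesterol, was at 1.145, 1.41 and 1.01 CPM in CT-26 mice against 0.0678, 0.118 and 0.1815 CPM in control mice (log2 3.23 ± 0.35 SE, edgeR adjusted p = 0.000717), and Il1b was at 0.716, 0.613 and 0.515 CPM in CT-26 mice against 0.102, 0.148 and 0.0363 CPM in control mice (log2 2.56 ± 0.43 SE, edgeR adjusted p = 0.00590). Both had a mean control count below 10. The count of rises among the 24 NF-kB genes that did not depend on 1 group for their counts was 3 (12.5%, beside 3.94% of all genes). It was 1 without CT-26 mouse 1 or control mouse 1. Of 55 interferon and MHC class I genes, 7 rose and 2 fell. Among the 53 with counts in both groups the shares were 13.2% higher and 3.8% lower, beside 3.94% and 4.83% of all genes. The rises were 2, 1, 2 and 1 without CT-26 mouse 1, CT-26 mouse 2, control mouse 2 and control mouse 3. The falls were 0 with edgeR without CT-26 mouse 1 or control mouse 2 and 1 without CT-26 mouse 3 or control mouse 1, beside 2 with DESeq2 and 5 at an unadjusted p below 0.05 in all libraries. Ifitm1 rose in every fit (log2 1.41 ± 0.25 SE, edgeR adjusted p = 0.00901).

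Blood cell transcripts were higher in the same CT-26 libraries. The neutrophil gene S100a8, a calcium-binding protein of granulocyte cytoplasm, was at 31.45, 7.68 and 3.03 CPM in CT-26 mice against 0.0339, 0 and 0.1815 CPM in control mice (log2 7.62 ± 1.23 SE, edgeR adjusted p = 0.00514), highest in mouse 1 and lowest in mouse 3. S100a9, its partner, was at 25.3, 7.965 and 2.33 CPM in CT-26 mice against 0.1695, 0.0886 and 0.1815 CPM in control mice (log2 6.30 ± 1.02 SE, edgeR adjusted p = 0.00530), in the same order. Both had a mean control count below 10 and passed the count minimum only through the CT-26 libraries, as did 8 of the 11 neutrophil genes tested. The 3 others, Csf3r, Mmp9 and Il1r2, did not pass in the fit of all 6 libraries (log2 0.66 ± 0.22 SE, edgeR adjusted p = 0.0908 for Csf3r). Of these 3, 1 was called higher in the repeat without CT-26 mouse 3. Without CT-26 mouse 1 the log2 values were 6.22 for S100a8 and 5.09 for S100a9, and without control mouse 3 S100a8 was at 9.47 and without control mouse 2 at 6.99. The chemokine receptor gene Cxcr2 was at 2.22, 1.08 and 0.7435 CPM in CT-26 mice against 0, 0 and 0 CPM in control mice. Over the 16 listed neutrophil genes the summed level was 44.1 to 148.7 CPM with CT-26 and 7.45 to 8.57 CPM in controls, and 5 or 6 of the 16 had no count in each control library. Lcn2 is on that list too, and the 2 measures did not rank the mice alike: CT-26 mouse 3 had 27.2 CPM of Lcn2 and 3.03 CPM of S100a8. The part of neutrophils in the Lcn2 result was not tested.

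Red cell genes were also higher: Hba-a1 was at 186, 196 and 162 CPM in CT-26 mice against 75.9, 91.3 and 63.3 CPM in control mice (log2 1.24 ± 0.11 SE, edgeR adjusted p = 0.000338), and the haem synthesis gene Alas2 of erythroid cells was at 8.73, 9.875 and 8.37 CPM in CT-26 mice against 2.64, 4.49 and 3.05 CPM in control mice (log2 1.39 ± 0.18 SE, edgeR adjusted p = 0.00143). Globin genes made up 0.055 to 0.071% of the reads in CT-26 libraries, against 0.024 to 0.037% in control libraries. Hba-a1 and Hba-a2 are near-identical, so their split is uncertain. T-cell gene Trac went the other way, at 0.7515, 1.297 and 1.05 CPM in CT-26 mice against 2.98, 2.87 and 2.54 CPM in control mice (log2 -1.43 ± 0.21 SE, edgeR adjusted p = 0.00298). How much of the change in any immune gene came with blood in the vessels was not tested.

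Vessel wall genes were partly higher. Vwf, which encodes the clotting protein von Willebrand factor of endothelium, was at 31.6, 30.2 and 22.2 CPM in CT-26 mice against 4.71, 4.93 and 4.28 CPM in control mice (log2 2.58 ± 0.14 SE, edgeR adjusted p = 1.08e-05), with every CT-26 mouse far above the controls. Icam1, an adhesion receptor for leukocytes, was at 3.94, 3.53 and 3.43 CPM in CT-26 mice against 0.813, 1.24 and 1.09 CPM in control mice (log2 1.78 ± 0.19 SE, edgeR adjusted p = 0.000606). Ly6a and Ly6c1, surface antigens of brain endothelium, rose (log2 1.58 ± 0.16 SE, edgeR adjusted p = 0.000503 and log2 1.16 ± 0.16 SE, edgeR adjusted p = 0.00197), and so did the transporter Slco1a4 (log2 0.58 ± 0.08 SE, edgeR adjusted p = 0.00194). Of 28 endothelial and blood-brain barrier markers, 8 rose (28.6%, beside 3.94% of all genes) and 1 fell (3.6%, beside 4.83%). Without CT-26 mouse 1, 5 rises were left. The tight junction gene Cldn5 was at 17.1, 15.2 and 14.3 CPM in CT-26 mice against 13.15, 14.3 and 17.25 CPM in control mice and did not pass (log2 0.05 ± 0.11 SE, edgeR adjusted p = 0.799). Fbln5, an elastic fibre protein gene, was at 33.4, 26.4 and 30.35 CPM in CT-26 mice against 7.08, 5.88 and 7.26 CPM in control mice (log2 2.16 ± 0.11 SE, edgeR adjusted p = 9.37e-06) and shared the smallest adjusted p of all genes with Fabp7.

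Glucocorticoid-responsive genes rose together. Of 30 listed genes, all of which were measured, 20 rose (66.7%, beside 3.94% of all genes), with a list median log2 of 0.67. Without control mouse 2 this was 15, and in the other repeats it was 15 to 22. With edgeR 0 fell, as with DESeq2, and 1 was lower at an unadjusted p below 0.05. The 4 with the smallest p were the hypoxia-inducible factor gene Hif3a, the phenol sulfotransferase gene Sult1a1, the lipid droplet gene Plin4 and the transglutaminase gene Tgm2.

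Hif3a was at 35.5, 26.8 and 39.8 CPM in CT-26 mice against 5.83, 6.44 and 8.75 CPM in control mice (log2 2.29 ± 0.17 SE, edgeR adjusted p = 6.13e-05). Sult1a1 was at 31.3, 19.9 and 27.9 CPM in CT-26 mice against 4.44, 4.08 and 6.14 CPM in control mice (log2 2.44 ± 0.18 SE, edgeR adjusted p = 6.81e-05). Plin4 was at 39.9, 24.0 and 41.85 CPM in CT-26 mice against 6.13, 5.61 and 9.08 CPM in control mice (log2 2.36 ± 0.22 SE, edgeR adjusted p = 0.000339). CT-26 mouse 2 was the lowest of its group for all 3 genes, and every CT-26 value exceeded every control value. Tgm2 was at 22.4, 22.6 and 20.8 CPM in CT-26 mice against 10.3, 8.45 and 9.15 CPM in control mice (log2 1.24 ± 0.09 SE, edgeR adjusted p = 6.13e-05), without that order. Fkbp5, the co-chaperone that dampens the glucocorticoid receptor, was at 66.8, 48.5 and 65.5 CPM in CT-26 mice against 28.1, 23.9 and 29.0 CPM in control mice (log2 1.16 ± 0.12 SE, edgeR adjusted p = 0.000503), again lowest in CT-26 mouse 2. Zbtb16, Map3k6 and Fam107a rose by log2 1.22, 2.29 and 0.83 (edgeR adjusted p = 0.006275, 0.00128 and 0.00532). Sgk1, a kinase that regulates ion transport, rose (log2 1.05 ± 0.21 SE, edgeR adjusted p = 0.0130), a call lost without CT-26 mouse 1 or control mouse 2 (edgeR adjusted p = 0.06035 and 0.05655). The receptor genes Nr3c1 and Nr3c2 did not pass (log2 -0.12 and 0.01, edgeR adjusted p = 0.190 and 0.950), nor did Per1 (log2 0.05 ± 0.12 SE, edgeR adjusted p = 0.824) or Dusp1 (log2 0.09 ± 0.17 SE, edgeR adjusted p = 0.789), which many other signals induce.

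The RefSeq promoter windows on GRCm38.p6, 250 bases before to 50 after a start, were searched on both strands for the core of the palindrome that the receptor binds, ACA and TGTNC with 3 bases between them. Of the 20 genes that rose, 16 had a window, and 4 held these letters, against 3.6% of all 27025 genes with a window. Of the 9 listed genes that did not pass and had a window, the number was 0. The list was chosen for its response to glucocorticoids and the counts are small, so they describe the list, and the difference was not tested. The 4 stretches are shown because their genes rose together, with the matching letters in capitals. They are from Sgk1 (chr10:21993664-21993754, plus strand, 186 to 176 bases before the start), the metallothionein gene Mt1 (chr8:94178957-94179047, plus strand, 92 to 82 bases before the start), Map3k6 (chr4:133240599-133240689, plus strand, 179 to 169 bases before the start) and Fam107a (chr14:8309845-8309935, minus strand, 116 to 106 bases before the start).
Sgk1: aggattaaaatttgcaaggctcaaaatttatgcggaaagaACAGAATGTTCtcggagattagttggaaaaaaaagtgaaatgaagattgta
Mt1: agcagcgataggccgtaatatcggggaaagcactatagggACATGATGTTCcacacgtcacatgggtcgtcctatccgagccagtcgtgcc
Map3k6: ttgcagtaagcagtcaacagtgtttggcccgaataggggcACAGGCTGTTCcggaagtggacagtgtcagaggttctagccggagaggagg
Fam107a: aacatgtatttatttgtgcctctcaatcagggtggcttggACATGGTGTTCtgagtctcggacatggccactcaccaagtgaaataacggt
Each stretch runs 5′ to 3′ on the strand of its gene. A match is a description of the letters, and binding there was not measured. Mt1 itself was at 512, 348 and 379 CPM in CT-26 mice against 199, 317 and 280.2 CPM in control mice (log2 0.64 ± 0.17 SE, edgeR adjusted p = 0.0387), a call lost without CT-26 mouse 1, CT-26 mouse 3, control mouse 1 or control mouse 3 (edgeR adjusted p = 0.139, 0.0663, 0.0641 and 0.0797). A second motif, TTCNNGGAA of STAT3 sites, was in 3 of 13 windows of the called interleukin 6 genes (Steap4, Agt and Serpina3i), against 5.6% of all genes.

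**Figure D3:**
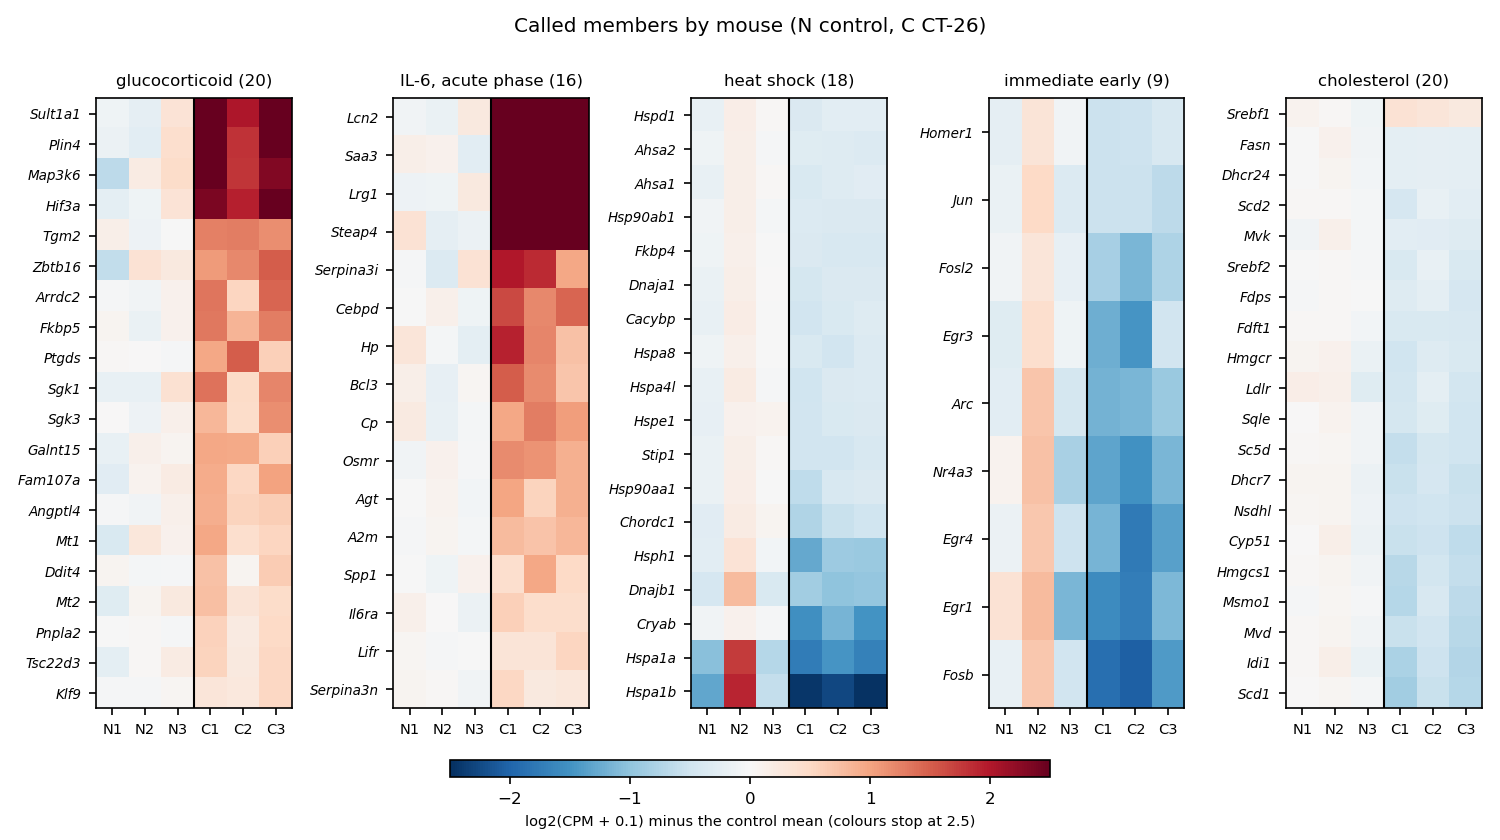
Called members of 5 gene lists (rows) in each mouse (columns, N1 to N3 control and C1 to C3 CT-26), coloured by log2(CPM + 0.1) minus the mean of the 3 controls, with colours stopping at 2.5. The glucocorticoid and interleukin 6 genes are red in the CT-26 mice, with Ddit4 palest in CT-26 mouse 2, the heat shock and immediate early genes and all cholesterol genes but Srebf1 are blue, and control mouse 2 stands out in Hspa1a, Hspa1b and the immediate early genes.

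Heat shock chaperone genes were lower with CT-26. Of 26 listed genes, all measured, 18 fell (69.2%, beside 4.83% of all genes), with a median log2 of −0.40. The count was 10 without CT-26 mouse 1 and 11 without control mouse 2, with a median of −0.29 in the latter. With edgeR and with DESeq2 0 rose, also at an unadjusted p below 0.05. Cryab, a small heat shock protein of glia and lens, was at 28.7, 37.3 and 29.7 CPM in CT-26 mice against 79.1, 90.9 and 82.2 CPM in control mice (log2 -1.40 ± 0.09 SE, edgeR adjusted p = 3.70e-05). Hsph1, a nucleotide exchange factor for HSP70, was at 167.5, 219 and 215 CPM in CT-26 mice against 341, 518 and 388 CPM in control mice (log2 -1.05 ± 0.14 SE, edgeR adjusted p = 0.00203). The groups did not overlap for either gene, and the abundant constitutive chaperones Hspa8 (log2 -0.40 ± 0.07 SE, edgeR adjusted p = 0.00738) and Hsp90ab1 (log2 -0.36 ± 0.07 SE, edgeR adjusted p = 0.00985) fell too.

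The inducible HSP70 genes rested on 1 library for their size. Hspa1b was at 5.12, 5.69 and 4.96 CPM in CT-26 mice against 11.3, 106 and 18.4 CPM in control mice (log2 -3.12 ± 0.71 SE, edgeR adjusted p = 0.0235), and without control mouse 2 the fall was 1.49 on the log2 scale and still called (edgeR adjusted p = 0.00332). Hspa1a was at 11.2, 13.55 and 11.7 CPM in CT-26 mice against 18.4, 128 and 23.3 CPM in control mice (log2 -2.23 ± 0.61 SE, edgeR adjusted p = 0.0461), or −0.77 without control mouse 2 (edgeR adjusted p = 0.00964). The calls of both were lost without any 1 CT-26 mouse, Hspa1b at an edgeR adjusted p of 0.0939, 0.0517 and 0.0837 and Hspa1a at 0.148, 0.0875 and 0.127 for mice 1, 2 and 3. The pair is near-identical in sequence, so the split of reads between them is uncertain. Rbm3, a cold-inducible RNA-binding protein gene, was at 146, 101 and 115 CPM in CT-26 mice against 57.6, 53.2 and 51.8 CPM in control mice (log2 1.16 ± 0.11 SE, edgeR adjusted p = 0.000459), and Cirbp, of the same family, was at 99.3, 91.1 and 86.7 CPM in CT-26 mice against 60.9, 47.1 and 56.5 CPM in control mice (log2 0.75 ± 0.09 SE, edgeR adjusted p = 0.000943). Both were picked after their values were seen, and body temperature is not given.

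The heat shock element, GAA, TTC and GAA with 2 bases between each, was in the promoter window of 4 of the 14 called chaperone genes that had one, against 0.662% of all genes. These were Hsph1, Chordc1 and the pair Hspe1 and Hspd1, which encode the mitochondrial chaperonins. The windows of that pair overlap and hold the same stretch, read from opposite strands, so it is counted for both genes. The stretch of Hspe1 (chr1:55088024-55088116, plus strand, 84 to 72 bases before the start) is shown as the 1 that lies in both windows. The element is in capitals, and binding there was not measured. In the Hspd1 window a match in this stretch lies 144 to 132 bases before the start.
Hspe1: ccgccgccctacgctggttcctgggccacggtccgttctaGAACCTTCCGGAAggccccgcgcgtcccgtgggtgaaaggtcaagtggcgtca
Hspe1 was at 51.1, 55.1 and 55.8 CPM in CT-26 mice against 61.8, 77.7 and 76.7 CPM in control mice (log2 -0.42 ± 0.08 SE, edgeR adjusted p = 0.0135), a call lost without CT-26 mouse 1 or control mouse 2 (edgeR adjusted p = 0.06035 and 0.0675). Hspd1 was at 169, 181.5 and 181 CPM in CT-26 mice against 191, 243 and 223 CPM in control mice (log2 -0.31 ± 0.08 SE, edgeR adjusted p = 0.0357), a call lost without CT-26 mouse 1, CT-26 mouse 2, CT-26 mouse 3, control mouse 2 or control mouse 3 (edgeR adjusted p = 0.118, 0.0748, 0.0862, 0.150 and 0.0946).

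Neuronal activity genes, the immediate early genes that rise within minutes of firing, were lower in part. Of 25, 9 fell (36%, beside 4.83% of all genes). The count was 3 without CT-26 mouse 1, 5 without CT-26 mouse 2, 7 without CT-26 mouse 3, 10 without control mouse 1, 6 without control mouse 2 and 11 without control mouse 3. With edgeR 0 rose, as at an unadjusted p below 0.05 and with DESeq2. Fosb, which accumulates with repeated activity, was at 5.26, 4.72 and 7.36 CPM in CT-26 mice against 17.3, 31.5 and 14.01 CPM in control mice (log2 -1.83 ± 0.27 SE, edgeR adjusted p = 0.00341). Egr4 was at 3.435, 2.23 and 2.99 CPM in CT-26 mice against 7.05, 12.6 and 5.45 CPM in control mice (log2 -1.53 ± 0.28 SE, edgeR adjusted p = 0.009325), and Fosl2 at 20.8, 16.8 and 21.8 CPM in CT-26 mice against 35.1, 45.8 and 32.4 CPM in control mice (log2 -0.93 ± 0.13 SE, edgeR adjusted p = 0.00275). Control mouse 2 was the highest of all 6 for each of these genes. Fos was at 13.2, 10.2 and 20.25 CPM in CT-26 mice against 29.2, 49.5 and 16.2 CPM in control mice, with control mouse 3 inside the CT-26 range, and did not pass (log2 -1.10 ± 0.34 SE, edgeR adjusted p = 0.0701), though it was called lower without control mouse 3 (log2 -1.41, edgeR adjusted p = 0.0184). Nr4a3 fell (log2 -1.46 ± 0.30 SE, edgeR adjusted p = 0.0146), a call lost without CT-26 mouse 1 (edgeR adjusted p = 0.0630). Rrad, a small GTPase gene that limits calcium channels, was at 7.41, 8.07 and 7.645 CPM in CT-26 mice against 21.4, 29.8 and 16.2 CPM in control mice (log2 -1.55 ± 0.18 SE, edgeR adjusted p = 0.00102).

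Myelin and oligodendrocyte genes were lower in the CT-26 hypothalamus. Of 28 mature oligodendrocyte markers, 19 fell (67.9%, beside 4.83% of all genes), with a median log2 of −0.61, and 15 to 19 fell in each repeat. One of the 28 had a mean CT-26 count below 10; of the 27 others 18 fell, with a median of −0.59. With edgeR and with DESeq2 0 rose, also at an unadjusted p below 0.05. Summed over the markers, the level was 3775 to 4071 CPM with CT-26 and 5442 to 6024 CPM in controls, whereas 14 pan-neuronal markers summed to 7936 to 8318 CPM and 8055 to 8221 CPM.

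Mag, the myelin-associated glycoprotein gene, was at 75.5, 77.2 and 73.5 CPM in CT-26 mice against 129.9, 132 and 129 CPM in control mice (log2 -0.79 ± 0.05 SE, edgeR adjusted p = 1.49e-05), with little spread inside each group. Ugt8a, which makes the galactolipids of myelin, was at 15.5, 26.0 and 18.3 CPM in CT-26 mice against 53.3, 46.9 and 45.85 CPM in control mice (log2 -1.29 ± 0.15 SE, edgeR adjusted p = 0.0008965). For both genes the groups were separate, and CT-26 mouse 2 was the highest of the CT-26 mice. Mbp fell (log2 -0.63 ± 0.07 SE, edgeR adjusted p = 0.000678), as did the lineage factor Sox10 (log2 -0.67 ± 0.09 SE, edgeR adjusted p = 0.00255). Klk6, a secreted protease of oligodendrocytes, was at 0.608, 1.045 and 0.572 CPM in CT-26 mice against 6.10, 4.875 and 3.52 CPM in control mice (log2 -2.75 ± 0.27 SE, edgeR adjusted p = 0.0004775), with no CT-26 value near the controls. Mobp did not pass (log2 -0.22 ± 0.06 SE, edgeR adjusted p = 0.0599).

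Of 16 markers of progenitors and newly formed oligodendrocytes 5 fell (31.25%, beside 4.83% of all genes): Bcas1, Enpp6, Gpr17, C1ql1 and the non-coding 9630013A20Rik. The last had a mean CT-26 count below 10. Bcas1, which marks early myelinating cells, was at 90.2, 102 and 85.5 CPM in CT-26 mice against 180.3, 194 and 174 CPM in control mice (log2 -0.98 ± 0.07 SE, edgeR adjusted p = 5.80e-05), and Enpp6, of newly formed oligodendrocytes, was at 2.755, 3.86 and 2.745 CPM in CT-26 mice against 12.3, 9.81 and 6.93 CPM in control mice (log2 -1.65 ± 0.21 SE, edgeR adjusted p = 0.001485). Gpr17, of committed precursors, fell (log2 -0.86 ± 0.09 SE, edgeR adjusted p = 0.000710). C1ql1, a gene of progenitors and some neurons, fell (log2 -0.70 ± 0.17 SE, edgeR adjusted p = 0.0299), a call lost without CT-26 mouse 1, CT-26 mouse 3, control mouse 2 or control mouse 3 (edgeR adjusted p = 0.0837, 0.109, 0.123 and 0.08075). The progenitor genes Pdgfra (log2 0.01 ± 0.06 SE, edgeR adjusted p = 0.940) and Cspg4 (log2 0.10 ± 0.07 SE, edgeR adjusted p = 0.399) did not pass, and the groups overlapped for Pdgfra at 55.0, 60.3 and 61.0 CPM in CT-26 mice against 62.5, 57.4 and 55.2 CPM in control mice.

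**Figure D4:**
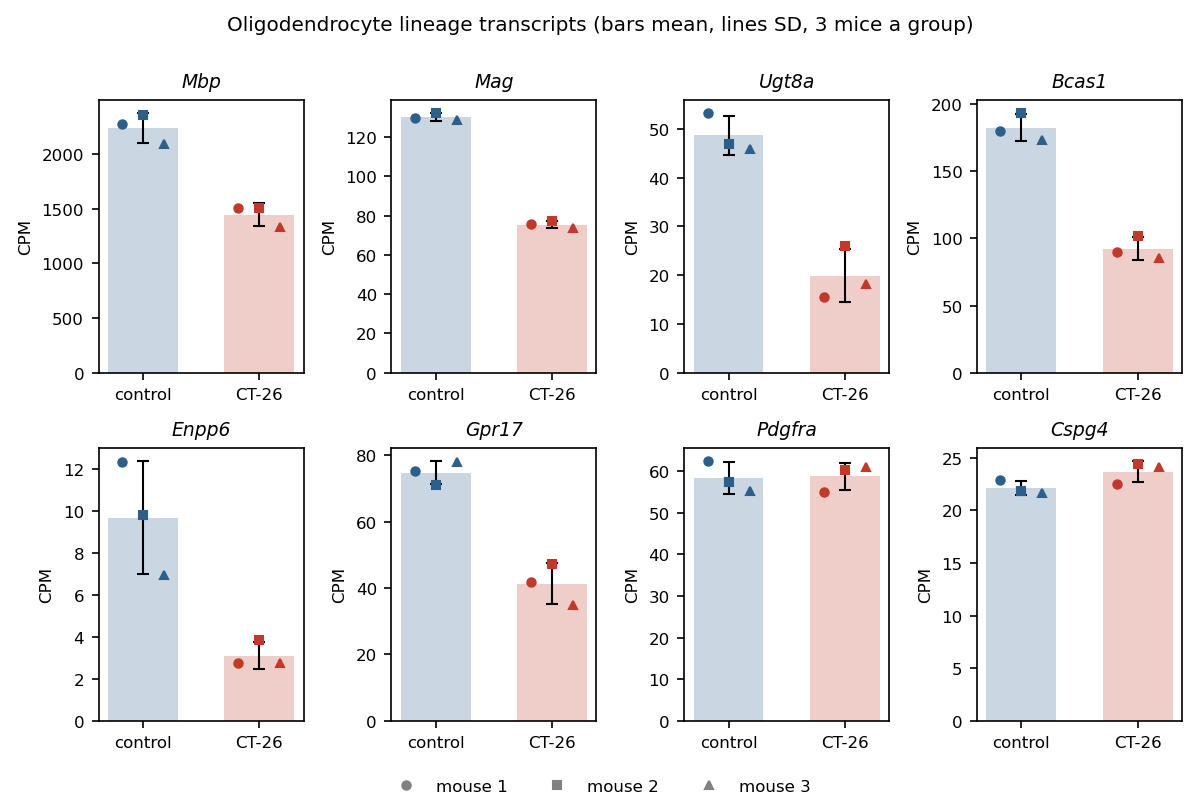
Level in CPM (y axis, from 0) of 8 oligodendrocyte lineage transcripts by group, with 1 point per mouse, bars at the mean and lines of 1 SD over 3 mice. The myelin genes Mbp, Mag and Ugt8a and the early genes Bcas1, Enpp6 and Gpr17 are lower in all 3 CT-26 mice than in any control, while the progenitor genes Pdgfra and Cspg4 lie at similar levels.

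Genes of sterol and fatty acid synthesis, used heavily by myelinating cells, were lower as well. Of 32 genes for cholesterol synthesis and uptake, a list that also holds fatty acid genes such as Scd1, Scd2 and Fasn, 19 fell (59.4%, beside 4.83% of all genes) and 1 rose (beside 3.94%), with a median log2 of −0.29, and 12 fell without control mouse 2. Scd1, the fatty acid desaturase, was at 183, 227 and 203 CPM in CT-26 mice against 338, 345 and 322 CPM in control mice (log2 -0.71 ± 0.07 SE, edgeR adjusted p = 0.000492). Hmgcs1, of the first committed steps, was at 195, 230.5 and 209.9 CPM in CT-26 mice against 323, 331 and 296.5 CPM in control mice (log2 -0.58 ± 0.07 SE, edgeR adjusted p = 0.000943), and Idi1 further along was at 44.2, 52.9 and 45.7 CPM in CT-26 mice against 77.4, 84.2 and 67.7 CPM in control mice (log2 -0.69 ± 0.09 SE, edgeR adjusted p = 0.00144). No CT-26 value reached the control range in these 3 genes. Srebf1, a lipogenic transcription factor gene, was the 1 that rose (log2 0.30 ± 0.06 SE, edgeR adjusted p = 0.0136), a call lost without CT-26 mouse 1 (edgeR adjusted p = 0.0515). The sterol element letters TCACNCCAC were in 1 of the 12 windows of called members, against 1.44% of all genes. That window is of Hmgcs1 (chr13:119690174-119690262, plus strand, 137 to 129 bases before the start), shown with the match in capitals.
Hmgcs1: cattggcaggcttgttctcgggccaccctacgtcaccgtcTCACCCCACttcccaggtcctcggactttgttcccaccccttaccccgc
The part of fewer myelinating cells in the cholesterol result was not tested, and the myelin values stand above.

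Astrocyte genes went both ways. Of 21 markers, 3 rose (14.3%, beside 3.94% of all genes) and 7 fell (33.3%, beside 4.83%), with 1 rise left without CT-26 mouse 1. Aqp4, the water channel of astrocyte end-feet, was at 58.65, 80.55 and 73.5 CPM in CT-26 mice against 145, 142.5 and 123 CPM in control mice (log2 -0.95 ± 0.10 SE, edgeR adjusted p = 0.000692), and the serine and alanine exchanger Slc7a10 was at 27.4, 33.7 and 28.7 CPM in CT-26 mice against 47.4, 48.5 and 48.9 CPM in control mice (log2 -0.69 ± 0.08 SE, edgeR adjusted p = 0.000771). Gfap did not pass (log2 -0.30 ± 0.12 SE, edgeR adjusted p = 0.163) but was called in 1 of the 6 repeats. Fabp7, a fatty acid-binding protein of astrocytes and neural progenitors, was at 11.2, 15.2 and 11.1 CPM in CT-26 mice against 51.5, 51.6 and 53.4 CPM in control mice (log2 -2.07 ± 0.11 SE, edgeR adjusted p = 9.37e-06), 4.20-fold lower with CT-26. Etnppl, a phospholipid-related lyase gene of astrocytes, was at 140.5, 128 and 143 CPM in CT-26 mice against 58.7, 67.55 and 66.95 CPM in control mice (log2 1.09 ± 0.07 SE, edgeR adjusted p = 1.81e-05). Myoc, a secreted glycoprotein gene, fell (log2 -2.002 ± 0.25 SE, edgeR adjusted p = 0.00143). Of 20 genes of reactive astrocytes with counts in both groups, 9 rose (45%, beside 3.94% of all genes), and 5 without control mouse 3. Fbln5, given above with the vessel wall genes, and Cp are on this list. Some genes are on several lists, such as Tgm2 on the glucocorticoid and endothelial inflammation lists, so the shares of different lists are not independent.

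Complement and scavenger transcripts of microglia and other macrophages were higher. Of 23 homeostatic microglia markers 1 rose (4.3%, beside 3.94% of all genes), Mertk (log2 0.59 ± 0.11 SE, edgeR adjusted p = 0.0101). The list median log2 was −0.16, and 3 fell without CT-26 mouse 2. Cx3cr1 did not pass (log2 -0.12 ± 0.11 SE, edgeR adjusted p = 0.518), nor did P2ry12 (log2 -0.44 ± 0.18 SE, edgeR adjusted p = 0.170), which was called in 1 of the 6 repeats. Of 28 activation and complement genes with counts in both groups, 11 rose (39.3%, beside 3.94% of all genes), and 9 without control mouse 2. C3, the central complement component, was at 17.3, 9.77 and 16.2 CPM in CT-26 mice against 5.05, 3.75 and 3.30 CPM in control mice (log2 1.84 ± 0.22 SE, edgeR adjusted p = 0.000996). Lyz2, a lysozyme of myeloid cells, was at 14.4, 17.3 and 10.4 CPM in CT-26 mice against 5.15, 4.255 and 4.61 CPM in control mice (log2 1.58 ± 0.18 SE, edgeR adjusted p = 0.000783), and the inhibitory IgG receptor gene Fcgr2b was at 6.155, 6.45 and 6.06 CPM in CT-26 mice against 2.85, 2.48 and 1.96 CPM in control mice (log2 1.35 ± 0.15 SE, edgeR adjusted p = 0.0007725). All 3 were higher in every CT-26 mouse. C1qa, of the first complement complex, rose less (log2 0.54 ± 0.08 SE, edgeR adjusted p = 0.00367). Neutrophils and monocytes in blood also carry Lyz2, and the myeloid gene Chil3 was at 2.58, 1.95 and 1.35 CPM in CT-26 mice against 0, 0 and 0.109 CPM in control mice, with a mean control count below 10, so that it passed the count minimum only through the CT-26 libraries.

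Fuel and growth genes changed in single members. Slc2a1, the glucose transporter of the blood-brain barrier and glia, was at 137, 127 and 132 CPM in CT-26 mice against 87.7, 84.45 and 99.4 CPM in control mice (log2 0.54 ± 0.06 SE, edgeR adjusted p = 0.00102). Txnip, an inhibitor of glucose uptake, was at 43.9, 32.2 and 37.5 CPM in CT-26 mice against 19.8, 17.1 and 16.5 CPM in control mice (log2 1.09 ± 0.11 SE, edgeR adjusted p = 0.0005315). These were 2 of the 4 genes that rose among 33 of fasting fuel use (12.1%, beside 3.94% of all genes). Another 3 fell (9.1%, beside 4.83%), and 1 fell without CT-26 mouse 1, CT-26 mouse 3, control mouse 1 or control mouse 2. Igfbp3, Igfbp4 and Igfbp7, binding proteins of insulin-like growth factors, rose by log2 0.62, 0.70 and 0.84 (edgeR adjusted p = 0.00116, 0.006685 and 0.00272). Tfrc, the transferrin receptor for iron uptake, was at 86.9, 83.4 and 89.9 CPM in CT-26 mice against 49.9, 43.0 and 55.2 CPM in control mice (log2 0.82 ± 0.08 SE, edgeR adjusted p = 0.000459), while transferrin itself, Trf, an oligodendrocyte product in brain, fell (log2 -0.39 ± 0.05 SE, edgeR adjusted p = 0.002395) as did the iron exporter Slc40a1 (log2 -0.72 ± 0.13 SE, edgeR adjusted p = 0.0103). Ribosomal protein genes shifted slightly upward: 25 of 79 rose (31.6%, beside 3.94% of all genes), with a median log2 of 0.21. But 3, 12, 4 and 3 rose without CT-26 mouse 1, CT-26 mouse 2, control mouse 1 and control mouse 2, and 21 and 23 without CT-26 mouse 3 and control mouse 3. Calls over all genes also dropped in the repeats, to 1.55% higher without control mouse 2. The list median log2 was 0.13 to 0.25 in the repeats.

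Several functions were near the background of 8.76% or below it. Of 38 GABA and glutamate receptor genes 1 was called, of 60 nuclear respiratory chain subunits 2, of 53 potassium channels 4, of 31 proteasome subunits 1 and of 28 genes induced by ATF4 or by amino acid shortage 1. In the repeats these counts were at most 2, other than up to 6 for the potassium channels. The potassium channel gene Kcnj10 of glia fell (log2 -0.53 ± 0.09 SE, edgeR adjusted p = 0.00804), and Kcnt1, a sodium-activated channel of neurons, rose (log2 0.45 ± 0.06 SE, edgeR adjusted p = 0.001375). Clock genes were above the background: of 25 core and output genes 4 rose (16%, beside 3.94% of all genes) and 2 fell (8%, beside 4.83%). In the repeats 3 to 5 rose and 0 to 4 fell. The output factor gene Tef was among the rises (log2 0.31 ± 0.05 SE, edgeR adjusted p = 0.00398). Of 23 endoplasmic reticulum chaperones 6 fell with edgeR (26.1%, beside 4.83% of all genes), 8 without control mouse 1, 2 without CT-26 mouse 2, 3 without CT-26 mouse 3 and 0 without CT-26 mouse 1, control mouse 2 or control mouse 3, beside 9 with DESeq2 and 10 at an unadjusted p below 0.05 in all libraries. Of 14 pan-neuronal markers 2 fell (14.3%), Tubb3 and Gap43, and of 24 synaptic vesicle genes 2 fell (8.3%), Stx1a and Syn1, beside 4.83% of all genes. Both counts were 1 without any 1 CT-26 mouse and 0 without control mouse 2 (edgeR), and the first was 1 without control mouse 3, beside 3 and 3 with DESeq2 and 6 and 5 at an unadjusted p below 0.05 in all libraries. The calls of Tubb3, Gap43 and Stx1a held in 5, 0 and 1 of the 6 repeats. Syn1, a vesicle phosphoprotein gene, was at 455.5, 428 and 436 CPM in CT-26 mice against 536, 575 and 513 CPM in control mice (log2 -0.30 ± 0.06 SE, edgeR adjusted p = 0.0103), a call lost without control mouse 2 (edgeR adjusted p = 0.05715).

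**Figure D5:**
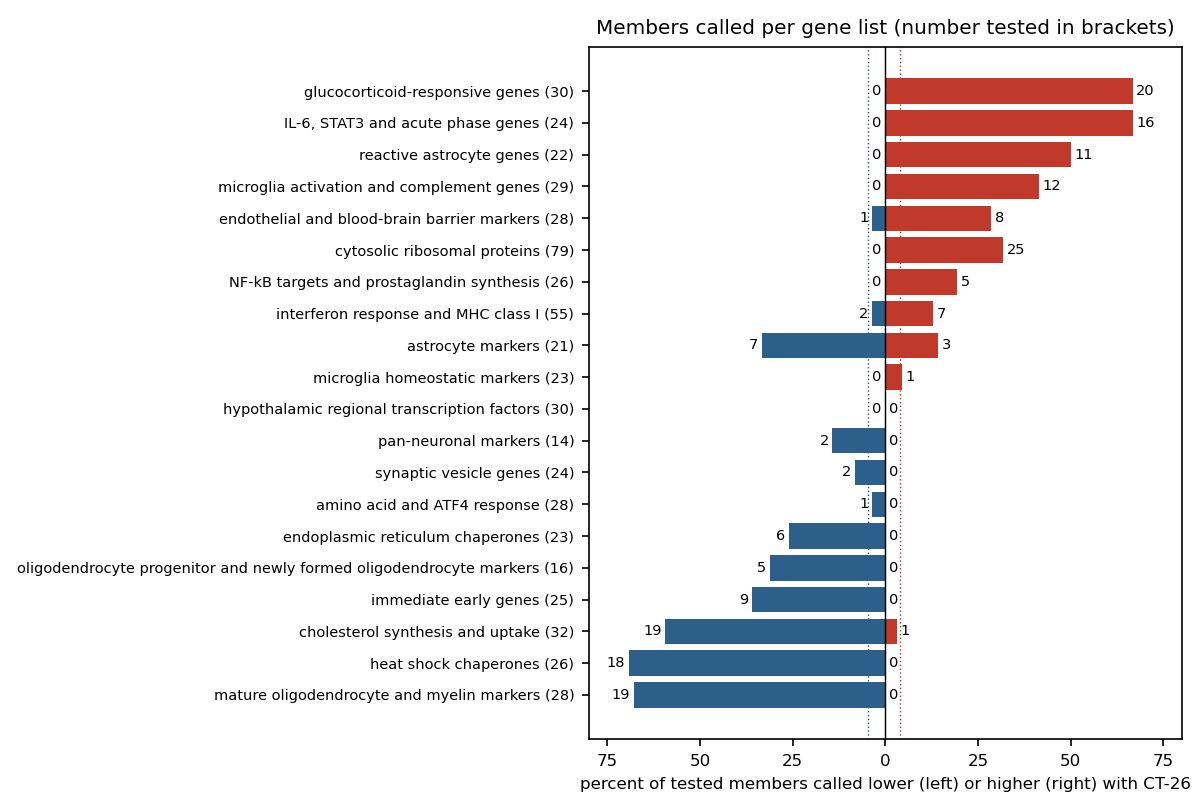
Percent of the tested members of 20 of the 55 gene lists called lower (blue, left) or higher (red, right) with CT-26, with the number called at each bar end, the number tested in brackets and dotted lines at the shares over all genes (4.83% lower and 3.94% higher). Among the lists shown, the myelin, heat shock and cholesterol lists reach furthest left and the glucocorticoid and interleukin 6 lists furthest right. The erythroid list, not shown, had 6 of 7 members higher (85.71%). The counts include members with a mean count below 10 in 1 group, such as 5 of the 24 interleukin 6 genes.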

How the data were processed

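Total RNA of 6 hypothalami was sequenced with strand-marking libraries and 100 bp paired ends. The tools RSEM 1.3.3, STAR 2.7.9a and Trim Galore 0.6.6 and the build GRCm38 are named in the submitters' processing notes. Which annotation release was used, and how strand was set, is not given in the sources used here. The deposited files hold RSEM expected counts and TPM per gene. GENCODE M21 named 52135 of 55416 identifiers.

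Expected counts were rounded and tested with edgeR 4.0.16 in R 4.3.3 (filterByExpr, TMM scaling, quasi-likelihood test, Benjamini-Hochberg adjustment, 2-sided, threshold 0.05), after the procedure was tested on simulated counts. The labels number 3 mice a group, and same-numbered mice are different animals. Alternatives used DESeq2 1.42.0, limma 3.58.1 on log2(TPM + 0.5), other scalings and filters, and each library left out. Named genes were those called at a mean of 1 or more log2 CPM, no overlap and a call without control mouse 2, as the 10 highest, 10 lowest and 6 smallest p, up to 4 called members per list of smallest p, and 14 fixed genes. Other list members, and Rbm3, Cirbp and the genes marking dissection, were chosen after their values were seen. The members and lists were chosen with earlier results of these data known. The gastrocnemius libraries were not used here. Some named genes are not reported here.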

Additional observations from a re-analysis of the deposited data

How the results depend on the processing

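The count of 1574 called genes became 520 (245 higher and 275 lower) with limma on log2(TPM + 0.5), 2640 (1257 and 1383) with no filter on low counts, and 420 (196 and 224) at an adjusted p below 0.01, which is a stricter threshold by construction; the cause of the other 2 shifts was not tested. Leaving out 1 library gave 578 to 1256 calls, 284 to 543 higher and 294 to 717 lower. RLE size factors gave 1572, library totals 1529, DESeq2 1675 and at least 1 CPM in 3 libraries 1525. Among the 162 named genes, none that was called in the fit of all 6 libraries reversed direction where an alternative gave a value. DESeq2 gave values for 158 of them and the 1 CPM filter for 155. Pmch, which was not called, went from log2 -0.04 with all 6 libraries to 0.05 without control mouse 2. Calls were lost by 2 named genes with RLE, 5 with library totals, 7 with DESeq2 and 2 with the 1 CPM filter. With TPM 55 lost their call, at the stricter threshold 57, and with 1 library left out 21 to 44 (44 without CT-26 mouse 1, 43 without control mouse 2). Library totals moved the median of all genes to 0.025 on the log2 scale.

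With the replicate number as a block 1110 genes were called (505 higher and 605 lower), and 19 named genes lost their call. The deviations of same-numbered mice correlated at −0.121, −0.0495 and −0.0152, so the numbers did not pair the samples. With 3 mice a group, p-values set each group difference against the spread between these mice, as estimated with information from all genes tested. Changes in transcripts of a few counts rest on few molecules.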
